A study of Mus musculus with 8 samples.

Results

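The genes described here are the small noncoding RNA genes with reads, 22 of the 5713 genes that the table annotates as snoRNA, snRNA, scaRNA, miRNA or misc_RNA. They were chosen by their measured values, since a gene entered when at least 1 of the 8 libraries held a read on it, and the other 5691 had none. The 22 genes were 9 miRNA, 7 misc_RNA, 4 snoRNA and 2 snRNA genes, and none of the 51 scaRNA genes had a read. Just inside that limit, Gm23374 and Rn7s6 had 1 read each over all libraries and Gm26268 had 2.

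The libraries came from satellite cells (SCs, muscle stem cells) of male C57B/6J mice that were aged 10 weeks when the groups were formed, with 4 libraries from control mice and 4 from exercise mice. Exercise mice had 4 weeks of treadmill running, on 4 days of each week, for 30 min at 12 m per min, and control mice were sedentary. About 800 cells per library were sorted from digested tibialis anterior muscle as negative for CD45, CD11b, CD31 and Sca1 and positive for CD34 and α7-integrin. The labels give polyA RNA as the molecule, taken through a single-cell library kit, and do not tie a library to an animal. The legend of the study counts mice, and p-values here measure the spread between these libraries.

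Most RNAs of these classes carry no poly(A) tail and work as folded RNAs bound to proteins. 7SK RNA holds the elongation factor P-TEFb inactive and so restrains RNA polymerase II, and 7SL RNA is the scaffold of the signal recognition particle, which brings secreted proteins to the endoplasmic reticulum. Box H/ACA snoRNAs guide pseudouridylation and box C/D snoRNAs guide methylation of ribosomal RNA, most of them from introns of host genes, and U1 snRNA pairs with the start of introns. These genes have many copies and fragments in the mouse genome, so sequence decides to which gene a read can be assigned.

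Sequences were read from the GENCODE M21 transcripts on GRCm38 (mm10), where all 22 genes had the coordinates and length of the table. The first set is shown because its members can hardly be told apart by reads. Gm23935 (miRNA, chr16:11144125-11144181, plus strand) and Gm24270 on chromosome 9 have the same 57 bases. Gm24187 (chr13:9834469-9834525, minus strand) differs by G11A. Gm25911 (chr1:167340369-167340424, minus strand) differs by G14A and by 1 missing base. Positions count from 1 at the 5′ end of Gm23935, and capitals mark the substituted base.
Gm23935: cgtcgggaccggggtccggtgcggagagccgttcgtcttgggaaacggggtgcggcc
Gm24187: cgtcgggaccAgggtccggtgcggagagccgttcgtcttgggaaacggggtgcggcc
Gm25911: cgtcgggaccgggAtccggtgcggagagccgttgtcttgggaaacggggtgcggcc
GC content was 73.7% in the 57-base sequence. No ribosomal RNA precursor was among the transcripts searched, so likeness of this sequence to ribosomal RNA was not tested.

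The next set shows where copies of 7SK part from it. Rn7sk (chr9:78175303-78175633, minus strand, 331 bases) is 7SK RNA itself. Gm24447 (chr15:93234363-93234700, plus strand, 338 bases) has the first 241 bases of Rn7sk and then another sequence. Gm26315 (chr2:7076094-7076414, minus strand, 321 bases) shares bases 5 to 239. Bases 211 to 290 of each gene are given, with capitals after the end of the shared run.
Rn7sk: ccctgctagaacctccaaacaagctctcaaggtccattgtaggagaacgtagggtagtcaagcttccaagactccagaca
Gm24447: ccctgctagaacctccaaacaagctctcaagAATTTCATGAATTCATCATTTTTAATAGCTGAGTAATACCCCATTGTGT
Gm26315: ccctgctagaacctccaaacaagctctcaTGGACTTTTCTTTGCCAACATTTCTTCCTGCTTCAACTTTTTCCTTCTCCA

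For 7SL, Rn7s1 and Rn7s2 on chromosome 12 have the same 300 bases. Gm26461 on chromosome 9 follows 7SL with 96.5% identity over its first 201 bases.

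The snoRNA genes are shown because they hold the largest rise, and a gene whose reads came in the libraries of its host. Capitals mark an ACA within the last 10 bases, the place of the H/ACA box, which 47.4% of the 1507 snoRNA genes hold on the transcribed strand. Gm23582 is at chr11:21249422-21249560 and Gm23722 at chr1:39573746-39573875, both on the minus strand.
Gm23582: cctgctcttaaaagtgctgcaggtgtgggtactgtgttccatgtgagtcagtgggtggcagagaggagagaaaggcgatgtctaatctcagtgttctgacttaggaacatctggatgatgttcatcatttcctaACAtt
Gm23722: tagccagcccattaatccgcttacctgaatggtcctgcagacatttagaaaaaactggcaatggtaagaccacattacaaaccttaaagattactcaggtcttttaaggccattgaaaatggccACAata
Snora57 on chromosome 19 also held this ACA, and Gm22205 did not. The C box letters TGATGA were in none of the 4, against 26.1% of all snoRNA genes. The D box letters CTGA were in 3 of the 4, including Gm22205, against 79.5%.

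The last set is the snRNA genes. Gm24305 (chr12:54734555-54734718, minus strand, 164 bases) is given with ACTTACCT in capitals, the letters by which U1 pairs with the start of an intron. Gm24924 is 98.8% identical to it over all 164 bases.
Gm24305: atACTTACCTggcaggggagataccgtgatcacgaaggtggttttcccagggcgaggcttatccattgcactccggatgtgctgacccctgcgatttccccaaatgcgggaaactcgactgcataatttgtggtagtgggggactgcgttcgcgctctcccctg
ACTTACCT stood in the first 20 bases of 60 of 1383 snRNA genes (4.34%, transcribed strand), and of these genes the only ones with reads were Gm24924 and Gm24305.

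Several libraries stood apart from what independent samples would give. Exercise 1 and exercise 2 differed by a chi-square per degree of freedom of 3.86 (2061 genes), where the other pairs of libraries gave 82.6 to 721. Control 4 kept 0.281 of the share of reads of genes found in control 1 and not in control 3, and 0.714 of the reverse set. Exercise 3 kept 0.299 and 0.677 of such genes of exercise 1 and exercise 4. Over the small RNA genes, the share of reads in exercise 3 lay strictly between the shares in exercise 1 and exercise 4 for 9 of 22, and in 6 others all 3 of these libraries were at 0. Results on the small RNA genes are therefore also given with exercise 1 and 2 averaged as 1 sample, and in a reduced set that averages them and omits control 4 and exercise 3, which leaves 3 control samples and 2 exercise samples. Among SC markers, Pax7, Itga7 and Cdh15 had no read in any library while Cd34 had reads in all 8, and Myf5 had 3 reads in control 2 and 1 in control 3. The myofibre gene Acta1 was between 9438 and 30962 FPKM, and no immune marker of 11 had a read. Marker lists of other cells had reads. All 10 fibro-adipogenic markers did, summing to 3046 to 4547 FPKM in control and 3620 to 9597 in exercise. Of 10 endothelial markers 3 did, summing to 0.0925 to 2994 FPKM in control and 4.42 to 26.2 in exercise, while Pecam1 and Cdh5 were at 0. Of 14 myofibre markers 12 did, summing to 32915 to 67627 FPKM in control and 19593 to 59692 in exercise. Of 18 SC markers 12 did, summing to 17.8 to 66.0 FPKM in control and 32.6 to 125 in exercise. The part of other cells in the values below was not tested.

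The deposited unit is FPKM, reads divided by gene length and by a library size. Values multiplied by length were whole multiples of 1 step per library, so reads were recovered. The library size in FPKM was not the read total but followed a median-of-ratios size factor, from 0.249 times the reads on genes in exercise 4 to 1.58 times in exercise 1 and 2. Depth ranged from 2339966 to 3013354 reads on genes in control libraries and from 1011737 to 1200221 in exercise libraries. For a gene of 57 bases, 1 read was worth 4.40 FPKM in control 4 and 60.9 FPKM in exercise 4. Mitochondrial transcripts took 50.2% of reads in exercise 3 and 68.7% in exercise 4, against 2.09% to 15.3% in the other 6 libraries. Reads per 1000000 reads on genes (RPM) are set beside FPKM, and their total counts the mitochondrial reads, which lowers RPM of other genes in exercise 3 and 4.

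The 22 genes held 14061 reads, of which 11298 fell on Rn7sk, Gm23935 and Rn7s1. Small RNA genes took 0.0462%, 0.139%, 0.112% and 0.0979% of the reads of control 1 to 4. They took 0.113%, 0.118%, 0.0557% and 0.00917% in exercise 1 to 4. Of the reads outside mitochondrial transcripts they took 0.0472%, 0.156%, 0.133% and 0.111% in control 1 to 4. In exercise 1 to 4 that share was 0.123%, 0.128%, 0.112% and 0.0293%, so exercise 3 was then close to exercise 1 and 2. The groups overlapped in both shares, and the lowest of each was in exercise 4, where the 22 genes had only 106 reads. In control 1 to 4, 13, 15, 15 and 16 of the genes had a read, and in exercise 1 to 4, 13, 15, 13 and 10. With 1011737 reads drawn from each library the counts were 11, 12, 11 and 15 in control and again 13, 15, 13 and 10 in exercise, so the order of the means turned with depth, from 14.8 and 12.8 to 12.2 and 12.8. Thus 12 genes had reads in both groups, 5 only in exercise libraries and 5 only in control libraries, and 7 of the 22 had at most 10 reads in all. A count of 0 allows up to 3 reads, or 9.96e-05% of the reads of control 3 and 2.97e-04% of those of exercise 2, counting error being the only error covered because PCR copies are not separate molecules.

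**Figure D1:**
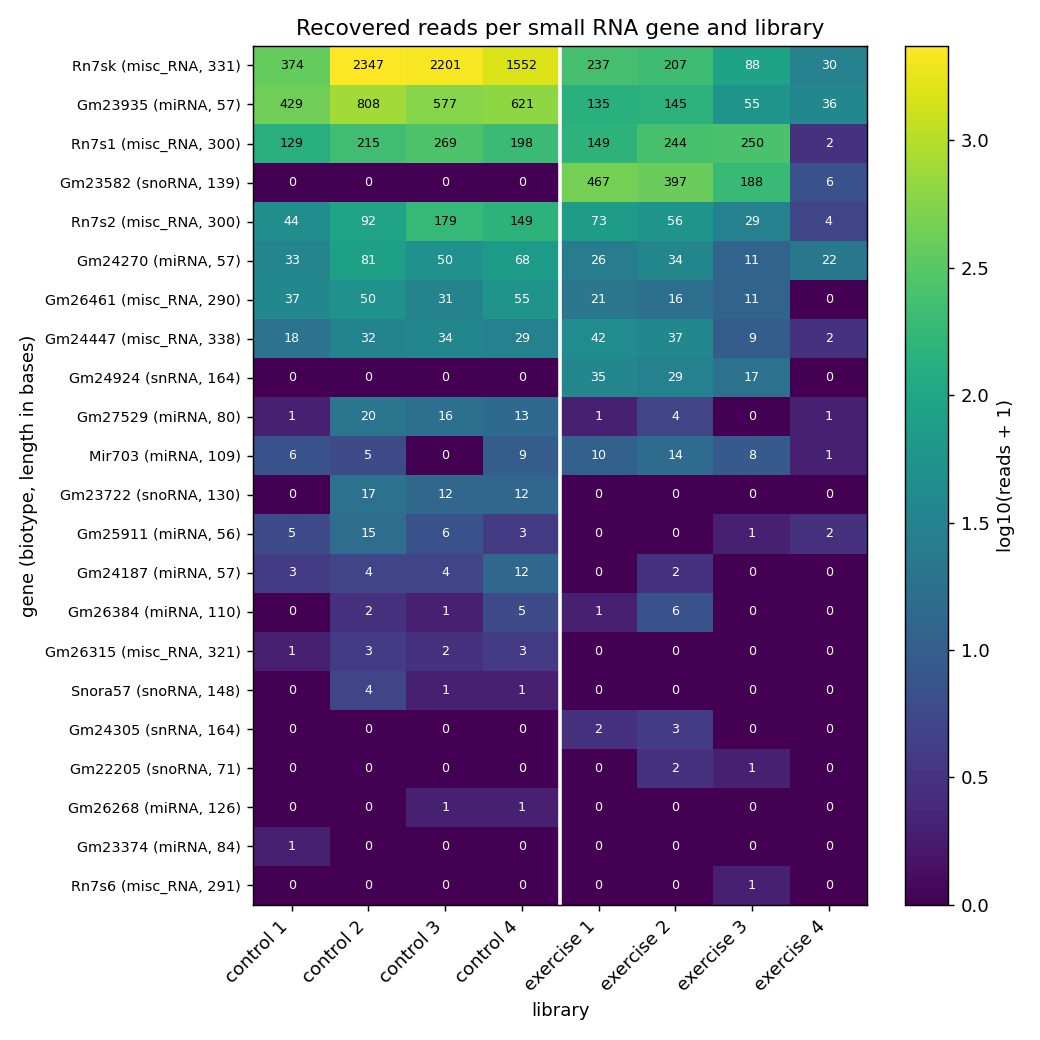
Recovered reads of the 22 small RNA genes (rows, with biotype and length in bases) in the 4 control and 4 exercise libraries (columns), coloured by log10(reads + 1) and printed in each cell. Gm23582 and Gm24924 had reads in exercise libraries and none in control libraries, while Rn7sk ranged from 374 to 2347 reads in control and from 30 to 237 in exercise.

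The groups were compared by limma on log2(FPKM + 1) in the 4328 genes that averaged at least 1 FPKM, with Benjamini-Hochberg adjustment over all of them. Of the small RNA genes, 19 passed that filter, and 3 (Gm26268, Gm23374 and Rn7s6) did not. Gm23582 and Gm24924 were called higher in exercise, 2 of 19 (10.5%), where 8.78% of all genes tested were called higher. Rn7sk, Gm23722, Gm24187 and Gm26315 were called lower, 4 of 19 (21.1%), where 26.8% of all genes tested were called lower. Both shares were near those of all genes. Of the 19, Gm23582, Gm24924, Gm24305 and Gm22205 had no read in control, and Gm23722, Gm26315 and Snora57 none in exercise. These 7 passed the filter only through the group where they had reads, so they had to differ, and their p-values and calls below are given as a description and support nothing. Of the 4 genes called lower, only Rn7sk had a control mean in FPKM above the mean that 0 reads would allow in the exercise libraries, and in RPM Gm23722 did as well. The log2 fold changes had a median of -0.20 over the 19 genes and of -1.42 over all genes tested. After quantile normalization these medians were 0.48 and -0.44, with 3 of the small RNA genes called higher and 1 lower, where 13.1% of all genes tested were called higher and 8.66% lower. After scaling to read totals the medians were -0.65 and -1.62. FPKM values of the groups did not overlap for 2 of the 19 genes that were higher and 3 that were lower, against 7.62% and 24.0% of all genes tested. With exercise 1 and 2 averaged, only Gm23582 was still called, and in the reduced set none of the 4328 genes was called, with 1 of the 19 and 451 of all at an unadjusted p under 0.05.

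7SK RNA had the most reads of these genes, and it was lower in exercise. In libraries of sorted cells, fewer cells with a transcript and less of it per cell cannot be told apart. Rn7sk had 374, 2347, 2201 and 1552 reads in control 1 to 4, and 237, 207, 88 and 30 in exercise 1 to 4. These made 493, 2315, 1704 and 1177 FPKM in control against 428, 392, 240 and 314 in exercise. The FPKM values of the groups did not overlap, but control 1 stood far below the other control libraries and close to exercise 1. Rn7sk fell by 1.87 on the log2 scale (SE 0.60, adjusted p = 0.0396), with an exact permutation p of 0.0286 against no change, the smallest that 4 libraries against 4 allow. That lies 0.46 below the median change of all genes, a distance that was not tested. In RPM the groups overlapped, at 160 to 881 in control and 26.0 to 224 in exercise, and the adjusted p was 0.0570 with values scaled to read totals. With exercise 1 and 2 averaged the log2 difference was -1.97 (adjusted p = 0.0827), and in the reduced set -1.79 (adjusted p = 0.458). The call was also lost without any 1 of control 2, 3 and 4 and exercise 1, 2 and 3 (adjusted p from 0.0801 to 0.103).

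Of the 7SK fragments, Gm24447 was not called and Gm26315 was called lower. Gm24447 had 18, 32, 34 and 29 reads in control and 42, 37, 9 and 2 in exercise. Its FPKM was 25.4 ± 4.09 in control and 46.9 ± 28.5 in exercise (SD, n = 4), groups overlapped, and the log2 difference was 0.65 (SE 0.70, adjusted p = 0.448). Gm26315, the fragment in an intron of Celf2, had 1, 3, 2 and 3 reads in control and none in exercise. The limma call of Gm26315 as lower (log2 difference -1.59, SE 0.41, adjusted p = 0.0206) rests on 9 reads in all, and its adjusted p was 0.0704 with exercise 1 and 2 averaged. The call was also lost without control 4, exercise 1, exercise 2 or exercise 3 (adjusted p from 0.0703 to 0.0823). It passed the filter only through the control libraries, and their 1.36 to 3.05 FPKM lie below the 5.59 to 32.4 FPKM that 0 reads allow in an exercise library, so a fall is not shown at this depth.

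7SL RNA had no called change. Rn7s1 had 129, 215, 269 and 198 reads in control, and 149, 244, 250 and 2 in exercise. In FPKM it was 187, 234, 230 and 166 against 297, 510, 752 and 23.1, so exercise 1 to 3 lay above every control library and exercise 4 below. The log2 difference was 0.17 (SE 1.02, adjusted p = 0.893), and 1.26 (adjusted p = 0.0525) without exercise 4. Rn7s2, with the same sequence, was at 110 ± 37.7 FPKM in control and 99.0 ± 42.5 in exercise (SD, n = 4), with a log2 difference of -0.20 (SE 0.65, adjusted p = 0.807). Gm26461 had 37, 50, 31 and 55 reads in control and 21, 16, 11 and 0 in exercise, and its log2 difference of -1.58 was not called (SE 1.20, adjusted p = 0.286). Without exercise 4, the library at 0, that difference was -0.27 (adjusted p = 0.605). Rn7s6, another gene like 7SL over part of its length, had its 1 read in exercise 3.

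**Figure D2:**
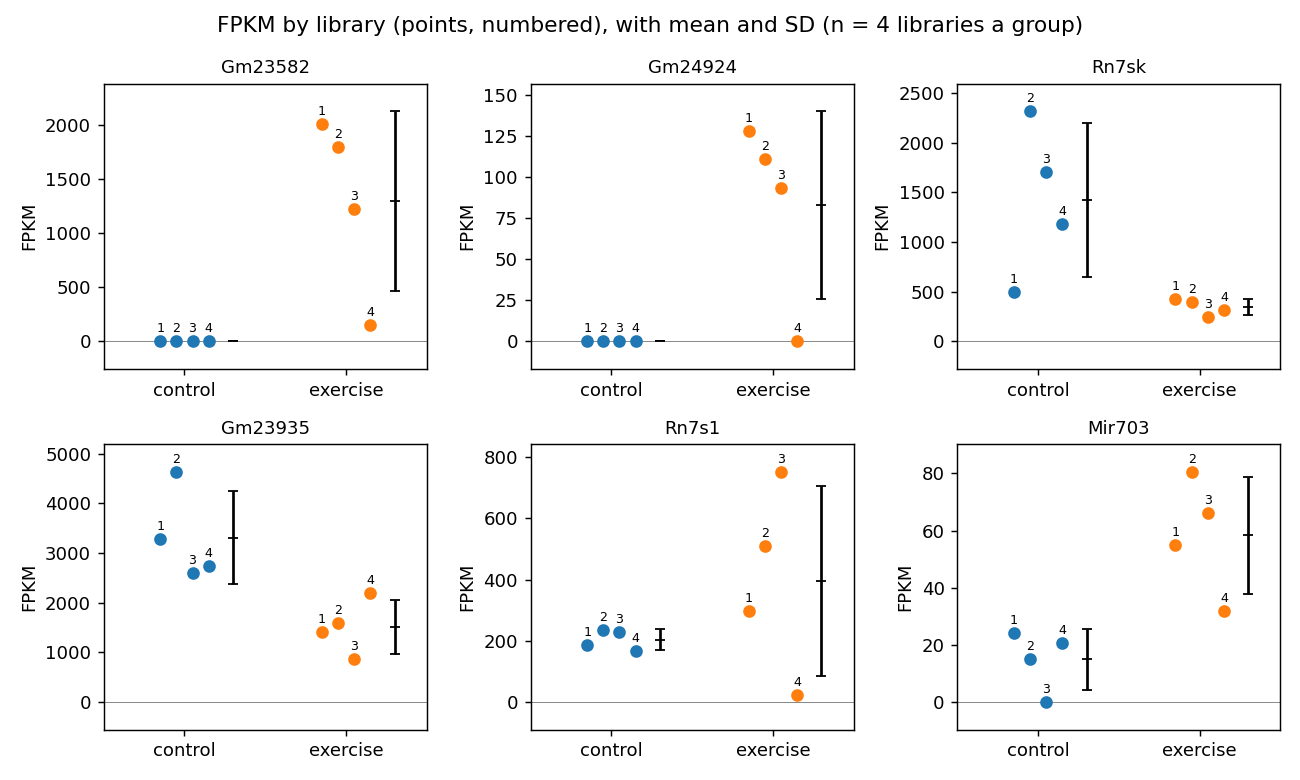
FPKM of 6 small RNA genes in each control (blue) and exercise (orange) library, numbered by replicate, with the mean and SD of each group (n = 4) in black. Gm23582 was at 0 in every control library and between 150 and 2009 in exercise, Rn7sk was lower in all 4 exercise libraries, and Rn7s1 was spread from 23.1 to 752 in exercise.

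Genes of like sequence were also summed, since reads may move between copies. The 3 genes with 7SK sequence (Rn7sk, Gm24447 and Gm26315) summed to 517, 2349, 1731 and 1201 FPKM in control and 503, 461, 264 and 335 in exercise, which did not overlap. In RPM they did overlap, at 168 to 894 in control and 27.7 to 264 in exercise. The 4 genes with 7SL sequence summed to 89.7, 134, 159 and 144 RPM in control and 230, 312, 242 and 5.19 in exercise, with exercise 4 alone below the control range. The 4 genes of the 57-base sequence summed to 201, 341, 211 and 252 RPM in control and 152, 179, 55.8 and 51.9 in exercise, all lower. On the FPKM scale that last order was lost, since exercise 4 rose to 3655 FPKM, from 60 reads, against 2864 to 5204 in control.

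**Figure D3:**
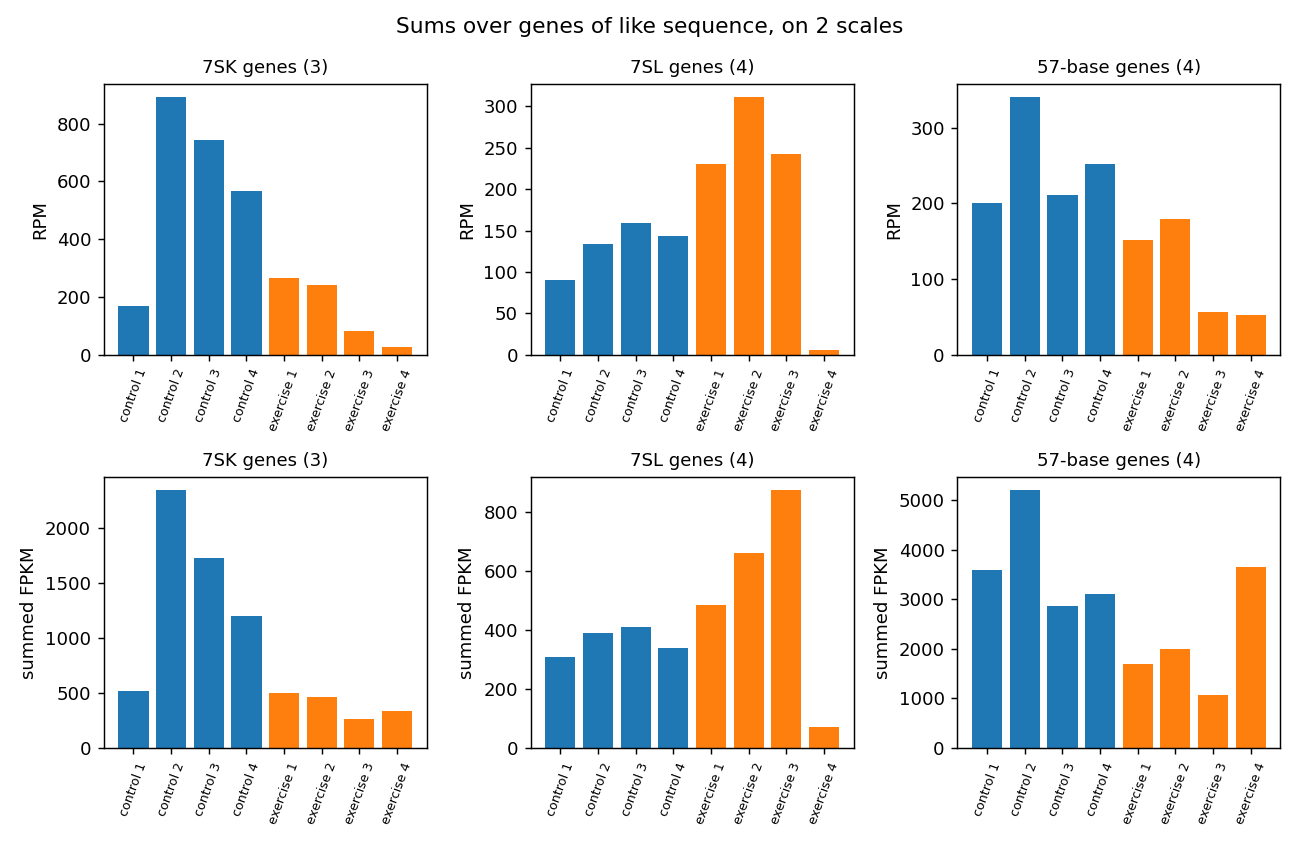
Sums over the 3 genes with 7SK sequence, the 4 with 7SL sequence and the 4 of the 57-base sequence, as RPM (top) and as FPKM (bottom), for each control (blue) and exercise (orange) library. The 57-base sum was lower in all exercise libraries in RPM, while in FPKM exercise 4 reached 3655.

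The largest rise among these genes was in the snoRNA gene Gm23582. It had no read in any control library, and 467, 397, 188 and 6 reads in exercise 1 to 4. These made 2009, 1790, 1220 and 150 FPKM, a mean of 1292 ± 831 (SD, n = 4). All 4 exercise libraries stood above the control libraries, and exercise 4 had far fewer reads than the other 3. Against the 3 reads per control library that a count of 0 allows, Gm23582 was at least 189-fold higher in FPKM, at least 222-fold higher in RPM, and at least 154-fold higher in FPKM without exercise 1. The log2 difference was 9.82 (SE 0.90, adjusted p = 4.09e-04, exact permutation p = 0.0286). The adjusted p ran from 5.95e-05 to 0.00379 without each library in turn, and was 0.00266 with exercise 1 and 2 averaged and 0.172 in the reduced set. Since Gm23582 entered the set and the test only through exercise, these p-values support nothing. The bounds against 3 reads come from the same values and cover counting error only, not the spread between libraries. They lean on exercise 1 and 2, the pair of libraries that differed least. No transcript searched matched Gm23582 at 95% identity over 95% of its length. The best match, the snoRNA gene Gm25053, had 82.2% identity over 118 of its 139 bases.

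The other snoRNA genes had few reads. Gm23722 had 0, 17, 12 and 12 reads in control and none in exercise, or 0, 42.7, 23.6 and 23.2 FPKM in control. Control 1 thus looked like the exercise libraries, and the groups overlapped. Gm23722 was called lower (log2 difference -3.67, SE 1.11, adjusted p = 0.0336), but the exact permutation p was 0.143 and the adjusted p was 0.0771 with exercise 1 and 2 averaged. The gene entered the test only through control, and leaving out control 1, the control library at 0, lowered the adjusted p to 1.07e-04 by construction. Without any other 1 library the call was lost (adjusted p from 0.0643 to 0.0959). Its mean of 22.4 FPKM in control was below 32.3 FPKM, the mean that counts of 0 allow in exercise, which exercise 4 raises by its 80.1 FPKM. In RPM its mean of 3.67 in control was at least 1.35-fold higher than the 2.72 that counts of 0 allow, and at least 1.01-fold without control 2. That bound covers counting error only, and in RPM the groups overlapped as well, so a fall is not shown on either scale. Snora57, an H/ACA snoRNA, had 0, 4, 1 and 1 reads in control and none in exercise, and its log2 difference of -1.54 was not called (SE 0.65, adjusted p = 0.0858). Calls without control 1 (adjusted p = 0.0121) and with array quality weights (adjusted p = 4.45e-04) support nothing on these few reads. Gm22205, from the imprinted snoRNA cluster on chromosome 12, had 2 reads in exercise 2 and 1 in exercise 3 only, with a log2 difference of 2.0 (SE 1.0, adjusted p = 0.132).

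Both snRNA genes with reads resembled U1 and had reads in exercise libraries only. Gm24924 had no read in control and 35, 29, 17 and 0 reads in exercise, or 128, 111, 93.5 and 0 FPKM. Exercise 4 was at 0 like the control libraries, so the groups touched there. Against 3 reads per control library, the exercise mean was at least 14.3-fold higher in FPKM, and at least 11.7-fold higher without exercise 1. The log2 difference was 5.09 (SE 1.45, adjusted p = 0.0289), with an exact permutation p of 0.143, for a gene that entered the test only through exercise. The call was lost with exercise 1 and 2 averaged (adjusted p = 0.0754), and also without control 2, control 3, control 4, exercise 1, exercise 2 or exercise 3, where adjusted p ran from 0.0594 to 0.0826. Gm24305 had 2 reads in exercise 1 and 3 in exercise 2, with a log2 difference of 1.67 (SE 0.86, adjusted p = 0.138). Gm24924 had 20 other genes at 95% identity and coverage, 2 of them with reads, so these reads may belong to another copy. None of the 13 snRNA genes with a symbol of a spliceosomal RNA (U1 to U12) had a read.

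Among the 9 miRNA genes with reads, none was a muscle miRNA. None of the 29 genes listed for muscle, such as Mir1a-1, Mir133a-1 and Mir206, which act in muscle differentiation, had a read in any library. Only Mir703 of the 9 was in the RefSeq table of miRNAs. The mature miRNA of Mir703 is given with its seed, bases 2 to 8, in capitals, a seed that no other of 1679 mature miRNAs of the table shared.
mmu-miR-703: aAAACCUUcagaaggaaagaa

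The 57-base genes carried most reads of the miRNA class. Gm23935 had 429, 808, 577 and 621 reads in control and 135, 145, 55 and 36 in exercise. This was 3281, 4629, 2593 and 2734 FPKM in control against 1416, 1594, 870 and 2192 in exercise. The groups did not overlap in FPKM or in RPM, where control was 225 ± 54.7 and exercise 87.0 ± 56.7 (SD, n = 4), a ratio of control to exercise of 2.59. The log2 difference was -1.16 (SE 0.45) with an exact permutation p of 0.0286, but the adjusted p over all genes was 0.0667, and 0.0202 without exercise 4. It is less of a fall than that of the median gene, by 0.25 on the log2 scale. Gm24270, of the same sequence, was at 310 ± 107 FPKM in control and 540 ± 539 in exercise, where exercise 4 alone was at 1339, and its log2 difference was 0.40 (SE 0.72, adjusted p = 0.658).

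The copies that differ by a base had fewer reads. Gm24187 had 3, 4, 4 and 12 reads in control and 0, 2, 0 and 0 in exercise. Gm24187 was called lower (log2 difference -3.66, SE 1.09, adjusted p = 0.0326), with an exact permutation p of 0.0571 and an adjusted p of 0.0545 with exercise 1 and 2 averaged. Among fits without 1 library, the call held without control 1 or exercise 2 and was lost in the other 6 (adjusted p from 0.0610 to 0.0955). Its mean of 29.2 FPKM in control was below the 31.5 FPKM that 0 reads allow in exercise 1, so a fall is not shown at this depth. Gm25911 had 5, 15, 6 and 3 reads in control and 0, 0, 1 and 2 in exercise. Its groups overlapped in FPKM, where 2 reads made 124 FPKM in exercise 4, and in RPM, and the log2 difference of -2.35 was not called (SE 1.52, adjusted p = 0.214). It was called without exercise 4, at -3.75 (adjusted p = 0.0441).

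Of the other 5 miRNA genes, 4 matched abundant mRNAs. Mir703 was 98.2% identical to the mRNA of Eef1a1, a translation elongation factor, over all of its 109 bases. Mir703 had 6, 5, 0 and 9 reads in control and 10, 14, 8 and 1 in exercise, or 24.0, 15.0, 0 and 20.7 FPKM against 54.9, 80.5, 66.2 and 31.8. The FPKM values did not overlap, the log2 difference was 2.54 (SE 1.06, adjusted p = 0.0823, exact permutation p = 0.0286), and in RPM exercise 4 fell among the control libraries. Without control 3, the control library at 0, the log2 difference was 1.45 (adjusted p = 0.162). Mir703 was called in 2 of 21 alternatives, quantile normalization (adjusted p = 0.0354) and array quality weights (adjusted p = 5.39e-04). Eef1a1 itself was at 257, 141, 156 and 154 FPKM in control and 276, 292, 260 and 682 in exercise, also higher in every exercise library, with a log2 difference of 1.01 (SE 0.59, adjusted p = 0.177). Mir703 had 0 to 5.89 reads per 1000 reads of Eef1a1 in control and 2.04 to 12.1 in exercise, which overlapped. Its reads and those of the mRNA cannot be told apart with certainty.

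The remaining miRNA genes had at most 20 reads in any library. Gm26384, also 98.2% identical to Eef1a1, had 8 reads in control and 7 in exercise, with a log2 difference of -0.08 (SE 1.27, adjusted p = 0.957). Gm27529 was identical over all 80 bases to Rpl19, a ribosomal protein mRNA. It had 1, 20, 16 and 13 reads in control and 1, 4, 0 and 1 in exercise, and its log2 difference was -1.64 (SE 1.30, adjusted p = 0.307). That difference ran from -2.43 without control 1 to -0.51 without exercise 3. Rpl19 had 110, 3230, 4637 and 2729 reads in control, so control 1 was low for both, and 97, 83, 235 and 325 in exercise. Gm23374, with 1 read in control 1, was 98.8% identical to the actin mRNA Actg1. Gm26268, with 1 read each in control 3 and 4, had alignments to 6726 other genes.

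Reads divided unevenly between copies. Of 4 pairs compared, the shares of Gm24447 and Gm24270 did not overlap between the groups, and those of Rn7s2 and Gm26461 did. Of the reads on Rn7sk and Gm24447, Gm24447 took 4.59%, 1.35%, 1.52% and 1.83% in control 1 to 4. It took 15.1%, 15.2%, 9.28% and 6.25% in exercise 1 to 4, above every control library, with an exact 95% interval of 0.766% to 20.8% for the 2 of 32 reads of exercise 4. For the identical pair Gm23935 and Gm24270, Gm24270 took 7.14%, 9.11%, 7.97% and 9.87% of the reads in control, and 16.1%, 19.0%, 16.7% and 37.9% in exercise. Its share was thus higher in all exercise libraries, though the transcripts have no base by which to tell them apart. Rn7s2, identical to Rn7s1, took 25.4% to 42.9% of their reads in control and 10.4% to 66.7% in exercise, where the highest share rested on 6 reads. Gm26461, set against Rn7s1, ran the other way, at 22.3%, 18.9%, 10.3% and 21.7% in control and 12.4%, 6.15%, 4.21% and 0% in exercise, with overlap at control 3 and with an exact 95% interval up to 84.2% for the 0 of 2 reads of exercise 4. How the authors' counting placed reads that match several genes is not given in the sources used here, and its part in these shares was not tested.

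**Figure D4:**
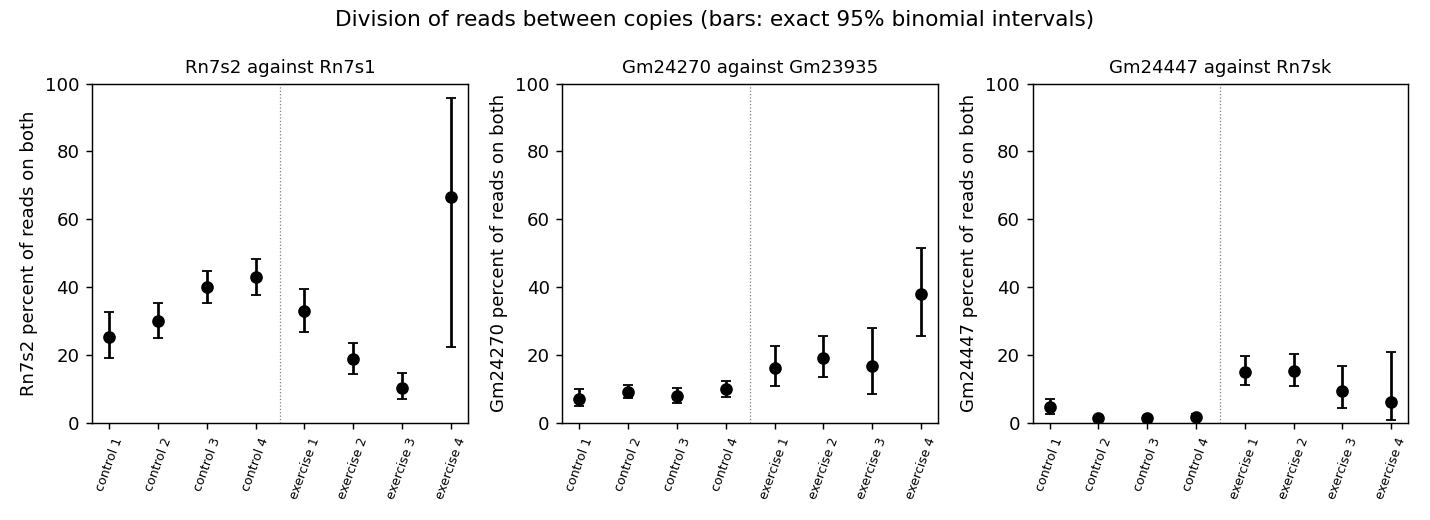
Percent of the reads on a pair of like genes that fell on the first of them in each library, with exact 95% binomial intervals, which cover counting error only. Gm24270 took 7.14% to 9.87% of the reads in control and 16.1% to 37.9% in exercise, and Gm24447 1.35% to 4.59% and 6.25% to 15.2%.

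Of the 22 genes, 11 lay within a gene of another biotype, all in introns, and 7 of these within a gene with reads, 3 on the same strand and 4 on the opposite one. Whether counting used strand is not given in the sources used here. Member and host were compared as the difference of their log2(FPKM + 1) values in each library.

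Gm23582 had reads where its host had none. Vps54, a subunit of a vesicle tethering complex, lies on the opposite strand at chr11:21239281-21321136. It had 7 reads in control 2 and 5 in control 3 and none elsewhere, so no library held reads of both. The log2 difference between snoRNA gene and host was 0.00, -0.38, -0.23 and 0.00 in control and 10.97, 10.81, 10.25 and 7.24 in exercise, higher by 9.97 (exact permutation p = 0.0286). With so few reads on Vps54, that difference is nearly the change of Gm23582 itself and shows nothing of the host, which was too low to be tested.

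Gm24924 lies on chromosome 18, on the same strand as its host Ss18, a subunit of a chromatin remodelling complex, and the 2 genes had most of their reads in different groups. Ss18 had 18, 483, 344 and 257 reads in control and 5, 7, 2 and 0 in exercise. Ss18 fell by 3.18 on the log2 scale (SE 0.85, adjusted p = 0.0233, 0.0586 with exercise 1 and 2 averaged and 0.458 in the reduced set), while Gm24924 had reads in exercise only. The log2 difference between member and host was -3.73 ± 1.60 in control and 4.54 ± 3.04 in exercise (SD, n = 4). In exercise 4 neither gene had a read, so the difference there is 0.00 by construction, and since the groups part only if that library counts as higher, no test is given.

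Gm23722 and Rnf149, a ubiquitin ligase gene on the same strand, had reads in the same libraries. Rnf149 had 0, 25, 29 and 19 reads in control and none in exercise, so both were present in control 2, 3 and 4 and absent from the other 5. Their difference did not separate the groups (exact permutation p = 0.143). Gm26315 and Celf2, an RNA-binding regulator of splicing on the same strand, did not share a pattern, as Celf2 had 314, 22, 23 and 161 reads in control and 59, 48, 20 and 10 in exercise. The log2 change of Celf2 was -0.08 (SE 0.63, adjusted p = 0.920), and the difference between the 2 genes had an exact permutation p of 0.143.

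The other hosts with reads lay on the opposite strand. Zc3h7a, around Gm23935, had 2, 9 and 6 reads in control 2 to 4 and none in the other 5 libraries, all of which held reads of Gm23935 (exact permutation p of the difference 0.0571). Wdr70, around Gm27529, changed by -0.41 (SE 0.88, adjusted p = 0.711), with an exact permutation p of 0.543 for the difference. Litaf, around Gm26268, fell by 3.74 (SE 1.03, adjusted p = 0.0258, 0.0735 with exercise 1 and 2 averaged and 0.458 in the reduced set), with 253 to 2313 reads in control and 4 to 26 in exercise, and the difference had an exact permutation p of 0.0571. Snora57 lay in an intron of Lbhd1, which had no read. The gene Ints5, 240 bases away and chosen after its values were seen, had 0, 299, 190 and 140 reads in control and none in exercise, the libraries in which Snora57 had reads or not.

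**Figure D5:**
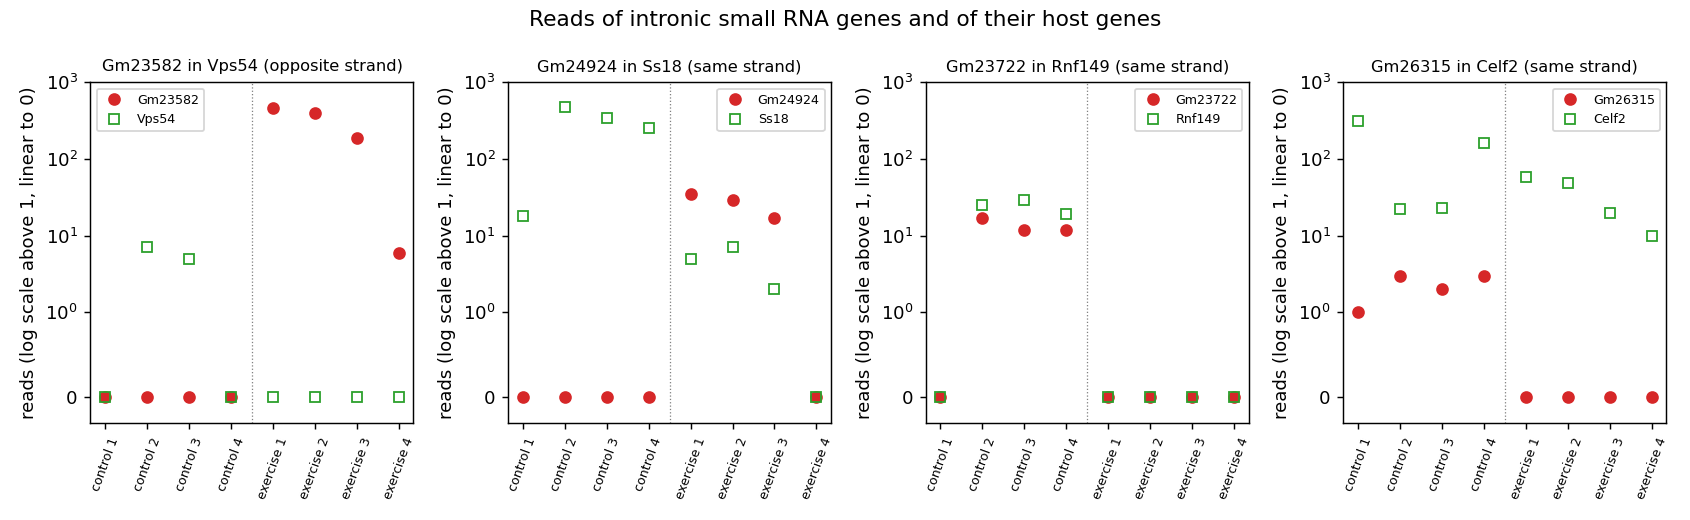
Reads of 4 intronic small RNA genes (filled red circles) and of their host genes (open green squares) in each library, on a log scale above 1 read and a linear one down to 0. Gm23582 and Vps54 shared no library, Gm24924 had no read in control, where Ss18 had most of its reads, and Gm23722 and Rnf149 had reads in control 2, 3 and 4 only.

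The proteins that make or bind small RNAs were followed in lists. Of the pol III and other structured RNAs listed, 10 were in the table, 4 had a read (Rn7sk, Rn7s1, Rn7s2 and Rn7s6), and Rny1, Rny3, Terc, Rpph1, Rmrp and Vaultrc5 had none. In the list of proteins of 7SK, Ro, La and the signal recognition particle, 10 were tested, with a median log2 change of -2.29 against -1.42 over all genes. Of these 5 fell (50%, where 26.8% of all genes did) and none rose (8.78% of all genes did). The list also held Rpp30, Rpp21 and Pop5, proteins of RNase P. Of those that fell, Rpp30, Srp68 and Pop5 had no read in exercise, and Srp19 had 0, 0, 1 and 1. Rpp30, Srp68 and Pop5 passed the filter only through control and had to differ, so the share of 50% supports nothing. Srp14, which binds 7SL RNA, fell by 3.68 (SE 0.85, adjusted p = 0.0127), from 26.4 ± 34.8 to 0.314 ± 0.377 FPKM (SD, n = 4). Hexim1, which binds P-TEFb together with 7SK, changed by 1.32 (SE 1.47, adjusted p = 0.461).

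Of the snoRNP proteins, 11 were tested, 1 rose (9.09%) and 4 fell (36.4%), with a median of -1.61. Over all genes 8.78% rose and 26.8% fell. Nhp2, a core protein of H/ACA snoRNPs, fell by 2.96 (SE 0.67, adjusted p = 0.0119), with 50, 28, 41 and 55 reads in control and 2, 4, 0 and 0 in exercise. Nop10, also an H/ACA core protein, had 71, 62, 127 and 79 reads in control and none in exercise. Nop10 passed the filter only through control and had to differ, so its log2 difference of -4.57 (SE 0.58, adjusted p = 9.37e-04) supports nothing. Nop58, a core protein of C/D snoRNPs, rose by 3.59 (SE 0.70, adjusted p = 0.00663), with 0, 3, 5 and 5 reads in control and 386, 375, 147 and 10 in exercise. Snu13, which also belongs to C/D snoRNPs, fell by 3.71 (SE 1.05, adjusted p = 0.0284).

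Of the Sm, LSm and SMN proteins, 15 were tested, 1 rose (6.67%) and 4 fell (26.7%), which is near the 8.78% and 26.8% of all genes, with a median of -0.84. Snrpc, a protein of the U1 particle, fell by 5.33 (SE 0.91, adjusted p = 0.00355), and Snrpg, of the Sm ring, rose by 3.27 (SE 0.94, adjusted p = 0.0300). Of the microprocessor, Dicer and Argonaute list, 6 were tested, 2 rose (33.3%, against 8.78% of all genes) and none fell (26.8% of all genes did). Dicer1, which cuts miRNA precursors, rose by 2.52 (SE 0.69, adjusted p = 0.0260). Its partner Prkra had no read in control and 195, 190, 54 and 1 in exercise. Prkra passed the filter only through exercise and had to differ, so its log2 difference of 4.46 (SE 0.99, adjusted p = 0.0112) supports nothing. Drosha, Dgcr8, Ago1, Ago3 and Ago4 had no read. Of the host genes of snoRNAs listed, 40 were tested, 7 rose (17.5%, against 8.78% of all genes) and 13 fell (32.5%, against 26.8%), with a median of -1.39. The snoRNA host transcript Zfas1 rose by 3.77 (SE 1.19, adjusted p = 0.0377), while no snoRNA gene lying in a gene of that list had a read. Of the 37 list genes called, Rn7sk included, 12 were still called with exercise 1 and 2 averaged, among them Nhp2, Nop10, Nop58, Prkra, Snrpc and Srp14. Snu13, Snrpg, Dicer1 and Zfas1 were not (adjusted p from 0.0636 to 0.0932), and in the reduced set none was (adjusted p from 0.299 to 0.482). Some called list genes had no read in control or none in exercise, among them Nop10, Ruvbl2, Prkra, Snrpa, Rpp30, Srp68, Pop5, Snhg15 and Snhg18. These passed the filter only through the other group, so their calls, and the shares that hold them, support nothing.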

How the data were processed

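SCs from 4 control and 4 exercise libraries were sequenced as 150-base paired reads. Per the labels, reads were aligned to mm10 with Bowtie 0.12.9, and the authors computed FPKM with Cufflinks 2.1.1 and counted reads with HTSeq, whose version is not given in the sources used here. The authors deposited a table of FPKM values, and all values times gene length fell within 0.001 of whole multiples of 1 step per library, which gave reads. The library size in each FPKM value was the median-of-ratios size factor times the geometric mean of the read totals.

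Rows that averaged at least 1 FPKM entered limma 3.58.1 (R 4.3.3; lmFit, eBayes with a trend) as log2(FPKM + 1), with Benjamini-Hochberg adjustment over 4328 rows and a threshold of 0.05. Rows were kept by gene identifier. On simulated data with known changes the fit was tested beforehand. Single values were compared by exact two-sided permutation over 70 assignments of libraries to groups (smallest p 0.0286). A count of 0 was taken to allow 3 reads. Sequences were compared with blastn 2.17.0 against GENCODE M21 transcripts on GRCm38. Scripts used numpy 2.4.6, pandas 2.3.3 and Python 3.11.15.

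The named genes were members with an adjusted p under 0.05 and groups that do not overlap, the 3 with most reads per biotype, those with reads in all libraries, those of the lists, and those with a host with reads. This named 15, and the other 7 are described because there are only 22. Proteins named from the lists, and the 6 genes plotted by FPKM, were chosen after their values were seen. The members and lists were chosen with earlier results of these data known. Alternatives were a pseudocount of 0.1, other filters, quantile normalization, scaling to read totals, no trend, array weights, the replicate number as a block, summed symbols, each library left out, exercise 1 and 2 averaged (also with control 4 and exercise 3 left out), and voom on recovered reads. The fits with fewer samples were extended to the lists and hosts after seeing the data. The sequence of 7SL RNA is not reported here.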

Additional observations from a re-analysis of the deposited data

Results flagged for a closer look

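In groups of 4 libraries, a library far from the other 3 was sought in the 22 genes and in 3 totals over them. Of 40 groups with any spread, 7 held such a library, where chance gives about 2, and many of these values are 0 or 1 read. On the log2(FPKM + 1) scale, exercise 4 was at 0.00 for Gm24924, against 6.56 to 7.01 in the other exercise libraries, and at 0.00 for Gm26461, against 5.14 to 5.47. Control 3 was at 0.00 for Mir703, against 4.00 to 4.64, and control 1 was at 0.00 for Gm23722, against 4.59 to 5.45. Exercise 2 was at 4.52 for Gm24187, from 2 reads, with the other exercise libraries at 0.00. Control 1 was at 2.63 for Gm23374 and exercise 3 at 2.04 for Rn7s6, from 1 read each, with the other libraries of the group at 0.00.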

How the results depend on the processing

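Of 389 refits of the 19 genes, 299 kept direction and call, 56 lost a call, 14 gained one and 20 changed direction, all 20 in genes that were not called. Gm23582 was called in 20 of 21 alternatives, Gm24924 in 11 of 20 and Rn7sk in 8 of 21. Genes called higher and lower were 2 and 4 as reported, beside 380 and 1161 of all 4328 genes tested. They were 1 and 1 of 22 without a filter (234 and 606 of all 9030). With at least 1 FPKM in 4 libraries they were 1 and 3 of 14 (323 and 798 of all 2669). Array weights gave 5 and 6 (815 and 2163 of all 4328), voom 4 and 0 (400 and 1393), and quantile normalization 3 and 1 (566 and 375). The replicate block gave 2 and 2 (270 and 789). They were 1 and 0 with exercise 1 and 2 averaged (179 and 424 of all), and 0 and 0, as over all genes, in the reduced set that also omits control 4 and exercise 3. Without 1 library at a time they were 1 to 2 higher and 0 to 5 lower, beside 163 to 560 and 363 to 1510 of all genes. The cause of these changes was not tested, apart from the fewer samples in the last fits. Same-numbered libraries had correlations of deviations from -0.0169 to 0.0393, while 6 of 8 libraries correlated best with their own number. Whether libraries of the same number share more than the number was not tested. Reversed log2 differences were, for Gm24270, -0.07 scaled to read totals, -0.04 with voom and -0.19 to 0.79 without 1 library, and for Gm26384 0.99 with quantile normalization, 1.58 with array weights, 0.88 with voom, 0.68 in the reduced set and -1.15 to 0.57 without 1 library. For Rn7s1 they were -0.25 scaled to read totals, -0.24 with voom, -0.06 with exercise 1 and 2 averaged, -1.14 in the reduced set, and -0.40 to 1.26 without 1 library. For Rn7s2 they were 0.48 with quantile normalization and -0.44 to 0.12 without 1 library, and for Gm26461 0.17 with array weights. The mean number of genes with a read, 14.8 in control and 12.8 in exercise, was 12.2 and 9.50 with at least 3 reads, and 12.2 and 12.8 with reads drawn to equal depth, where the order turned. The mean share of reads, 0.0988% in control and 0.0741% in exercise, was 0.0406% and 0.0609% without Rn7sk, so the order of the groups turned. Differences from the host separated the groups for 2 genes, and for 1 with hosts on the same strand only, counting libraries with no read of either gene as 0. Depth limits the 7 genes with at most 10 reads, none of which had a read in exercise 4. In other genes, 1 read in exercise 4 outweighs several in a control library on the FPKM scale.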
